A study of Mus musculus with 2 samples.

Results

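The 7 microRNA genes described here, Mir122, Mir192, Mir194-1, Mir194-2, Mir148a, Mir455 and Mir802, are a list of microRNAs associated with hepatocytes, the main cell type of the liver. They were taken by name, with Ensembl IDs matched to GENCODE M21 symbols, and all 7 had a row among the 1973 microRNA genes of the deposited tables. The tables come from sequencing of RNAs shorter than 30 nucleotides from B6NCrl mouse liver taken at embryonic day 14.5, with no genetic change or treatment named in the labels. There is 1 group with 2 libraries, replicates 1 and 2. The labels call each a single liver, collected on separate days, but also name pooled sexes and a common donor for both, so their independence is uncertain. A p-value between them measures only how these libraries differ. Reads counted on the gene's own strand numbered 2353946 in replicate 1 and 3132763 in replicate 2. Levels are given as CPM, each gene's counts per 1000000 counts of that library's total. A value after ± is the SD of the 2 libraries (n = 2).

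MicroRNAs are short RNAs cut from a hairpin precursor, and each arm of the hairpin (5p or 3p) can give a mature product. The product pairs with messenger RNAs mainly through its seed, the bases near its 5′ end, and lowers the amount of protein made from them. Hepatocytes are known for very high miR-122, which acts on genes of cholesterol and fatty acid metabolism. The miR-192 and miR-194 pairs are made from shared transcripts and are typical of liver, gut and kidney epithelium. MiR-148a is known for targeting the DNA methyltransferase Dnmt1 and the LDL receptor, miR-455 for a role in cartilage and brown fat, and miR-802 for a role in liver glucose metabolism. At this stage the liver is also full of developing red blood cells. In whole tissue, a lower level from fewer cells of a type cannot be told apart from less RNA per cell.

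The mature sequences show which members can be told apart by their reads. RefSeq's microRNA table (GRCm38.p6) matched 6 of the 7 members, all but Mir122, and all 3 relatives Mir215, Mir148b and Mir152. The sequences below run 5′ to 3′, with the seed (bases 2 to 8) in capitals.
miR-192-5p (Mir192): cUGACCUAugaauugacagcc
miR-215-5p (Mir215): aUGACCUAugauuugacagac
miR-194-5p (Mir194-1 and Mir194-2): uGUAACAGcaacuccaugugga
miR-194-2-3p (Mir194-2): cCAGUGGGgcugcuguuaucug
miR-194-1-3p (Mir194-1): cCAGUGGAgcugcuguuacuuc
miR-148a-3p (Mir148a): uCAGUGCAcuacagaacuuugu
miR-148b-3p (Mir148b): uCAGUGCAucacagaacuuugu
miR-152-3p (Mir152): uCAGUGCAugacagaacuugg
miR-455-5p (Mir455): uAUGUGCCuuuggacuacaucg
miR-455-3p (Mir455): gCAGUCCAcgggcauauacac
miR-802-5p (Mir802): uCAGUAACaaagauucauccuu

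MiR-192-5p and miR-215-5p share the seed UGACCUA and differ at 3 of 21 positions, counted from 1 at the 5′ end, by C1A, A12U and C20A. The 3p products of Mir194-2 and Mir194-1 differ at 4 of 22 positions by G8A, U19C, C20U and G22C, and the first of these lies in the seed. MiR-148a-3p, miR-148b-3p and miR-152-3p share the seed CAGUGCA. Against miR-148a-3p, miR-148b-3p differs by C9U and U10C, and miR-152-3p by C9U, U10G and U20G over the 21 positions compared. Among the members' products in the table, miR-194-5p alone lies whole in a hairpin of another gene: it is identical in Mir194-1 and Mir194-2. Reads mapping to more than 1 place, 34.0% and 33.1% of all reads, stand in a row of their own and not in the gene counts. The counts of Mir194-1 and Mir194-2 therefore leave out reads that fit both loci and are lower limits. The tables do not separate the 5p and 3p arms.

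The members ran from the highest gene of the table to a gene with fewer than 10 counts in each library. CPM are compared between genes without length scaling: the 12 products RefSeq lists for the 6 matched members are 21 or 22 bases long, while the lengths of the reads are not in the tables. Mir122 had 97348.5 and 110371 CPM in replicates 1 and 2 (103860 ± 9208), which placed it first by counted reads in both libraries. Mir192 had 4467 and 4642 CPM (4555 ± 124) and ranked 48th of 1973 by mean. Mir194-2 had 2099 and 2314 CPM (2206 ± 152) at rank 66. By counted reads these 3 genes were the highest members in each library, and their ranges did not overlap. The places of Mir194-2 and Mir194-1 rest on lower limits, since reads that fit both loci are left out.

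Mir148a had 1738 and 1793 CPM (1766 ± 39.2) at rank 72. Mir455 followed with 828 and 930 CPM (879 ± 71.8) at rank 101. A gap of 52.6-fold in mean CPM separated Mir455 from Mir194-1, which had 14.9 and 18.5 CPM (16.7 ± 2.58) from 35 and 58 counts, at rank 264. Mir802 was lowest with 3.82 and 2.23 CPM (3.03 ± 1.12). It rested on 9 and 7 counts, whose exact 95% Poisson intervals are 1.75 to 7.26 and 0.898 to 4.60 CPM and overlap widely. By the same intervals a count of 0 would allow up to 1.57 CPM in replicate 1 and 1.18 CPM in replicate 2. Both values of Mir802 lie above these, though its lower limit in replicate 2 does not. Mir802 was thus counted in both libraries but at a level too low for a comparison. These intervals cover counting error only, since PCR copies are not independent molecules. The order of the 7 genes was the same in each library, with counts regardless of strand and when scaled per kilobase of annotated locus. None of these settings restores the reads shared by Mir194-1 and Mir194-2. Their places and the 52.6-fold gap hold for counted reads only.

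**Figure D1:**
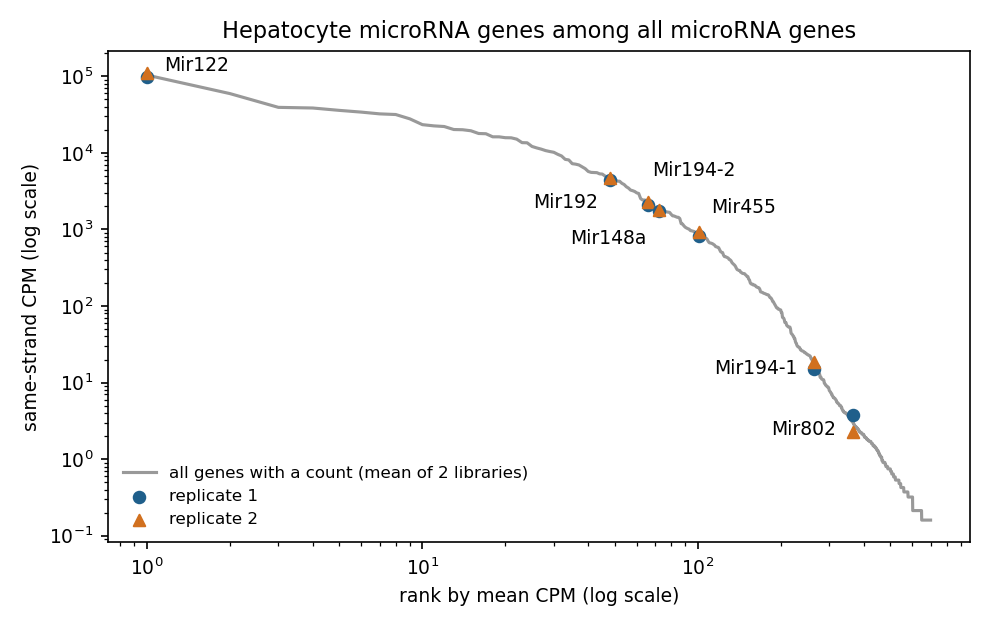
Same-strand CPM against rank by mean CPM for every microRNA gene with a count (grey line, mean of 2 libraries), both axes on a log scale, with the members' CPM in replicate 1 (circles) and replicate 2 (triangles). Mir122 sits at rank 1, 4 members lie between ranks 48 and 101, and Mir194-1 and Mir802 lie at ranks 264 and 366.

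Mir122 outweighed the other members by far. Together the 7 genes held 10.6% of the counts in replicate 1 and 12.0% in replicate 2 (11.3% ± 0.960). Mir122 made up 91.4% and 91.9% of that sum, with Clopper-Pearson 95% intervals of 91.3 to 91.5 and 91.8 to 92.0. The other 6 genes came to 9150 and 9700 CPM. Of these, Mir192 gave 48.8% and 47.9%, Mir194-2 22.9% and 23.9%, Mir148a 19.0% and 18.5%, and Mir455 9.05% and 9.58%. These shares leave out the reads that fit both Mir194 loci. For each count of Mir192 there were 21.8 counts of Mir122 in replicate 1 (21.4 to 22.2) and 23.8 in replicate 2 (23.4 to 24.2). The same figure for Mir148a was 56.0 (54.3 to 57.8) and 61.5 (59.9 to 63.2). For Mir194-2 (46.4 and 47.7) and Mir455 (118 and 119) the intervals of the 2 libraries overlapped. Mir122 thus stood further above Mir192 and Mir148a in replicate 2 by more than counting error, while with n = 2 the spread between animals is not known beyond these values.

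The pair formed by Mir192 and Mir194-2 was counted far more often than the related pair formed by Mir215 and Mir194-1. Mir192 (6264844 to 6264932) and Mir194-2 (6264643 to 6264728) lie 115 bases apart on the plus strand of chromosome 19 of GRCm38 (mm10), in no other annotated gene, and Mir194-2 is 2307 bases from the nearest coding gene, Atg2a. Mir194-1 (185313319 to 185313385) and Mir215 (185313581 to 185313692) lie 195 bases apart on the plus strand of chromosome 1. There Mir194-1 is in an intron and Mir215 in an exon of the noncoding gene 2010103J01Rik, and both are opposite an intron of Iars2, which encodes a mitochondrial isoleucine tRNA synthetase.

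Mir215 had 2.97 and 3.19 CPM (7 and 10 counts), which is near Mir802 and far below its seed relative Mir192. There were 1502 counts of Mir192 per count of Mir215 in replicate 1 (95% exact interval 729 to 3737) and 1454 in replicate 2 (791 to 3033). Mir192 held 99.9% of the counts of genes with the seed UGACCUA in each library. Mir194-2 had 141 counts per count of Mir194-1 in replicate 1 (101 to 203) and 125 in replicate 2 (96.6 to 165). Both ratios between the chromosomes therefore pointed the same way in both livers, with the chromosome 19 copy higher. For Mir194 this holds only for reads that fit 1 locus, and how the shared miR-194-5p divides between the loci was not tested.

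Within each pair, the balance of neighbours differed little between the livers. Mir192 had 2.13 counts per count of Mir194-2 in replicate 1 (2.06 to 2.20) and 2.01 in replicate 2 (1.95 to 2.06). A two-sided Fisher's exact test of this difference gave p = 0.00845, or 0.0507 after Benjamini-Hochberg adjustment over the 6 pairs compared, so it did not pass. On chromosome 1 the Mir194 gene was the higher, with 5.00 and 5.80 counts of Mir194-1 per count of Mir215. Both Mir194 counts leave out reads that fit both loci. Whether Mir192 exceeds Mir194-2 is therefore not known, and the orders of the 2 pairs cannot be compared. The 6 pairs were these 2, Mir194-2 with Mir194-1, Mir192 with Mir215, and Mir148a with Mir148b and with Mir152. None differed between the libraries at an adjusted p under 0.05, and 1, Mir192 with Mir194-2, did at an unadjusted p.

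**Figure D2:**
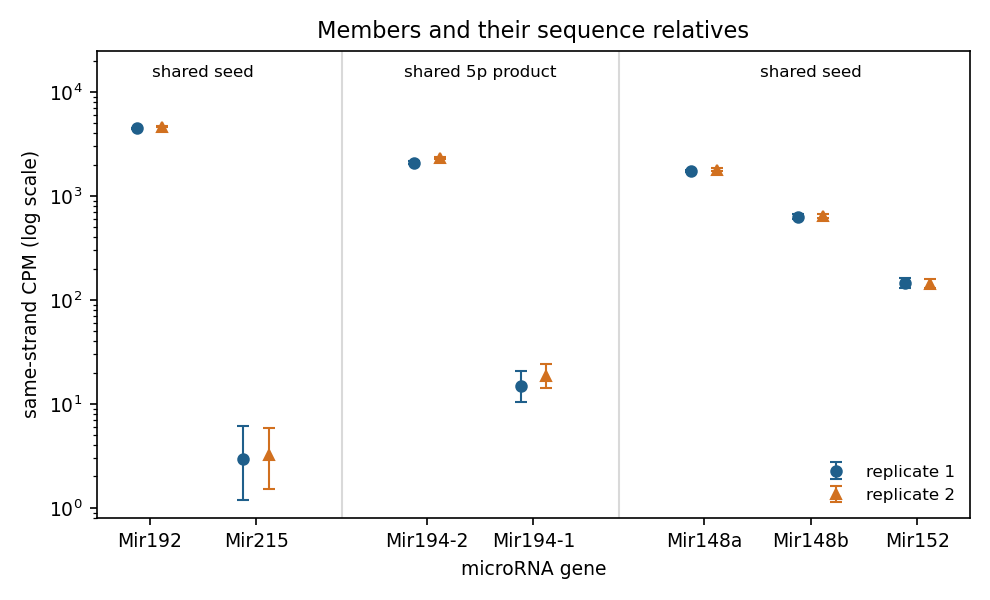
Same-strand CPM on a log scale for members and their sequence relatives in replicate 1 (circles) and replicate 2 (triangles), with 95% exact Poisson intervals as bars. Mir192 and Mir194-2 stand at 2099 CPM or more in both libraries, while Mir215 and Mir194-1 stay at 18.5 CPM or less, and the Mir148a family falls in the order Mir148a, Mir148b, Mir152.

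Mir148a was the highest gene of its seed family but not its only strong member. It lies on the minus strand of chromosome 6 from 51269812 to 51269910, in no other annotated gene. Mir148b, in an intron of the coat protein gene Copz1 on chromosome 15 (103285125 to 103285221), had 634 and 639 CPM (637 ± 3.62). Mir152, in an intron of the paralogous gene Copz2 on chromosome 11 (96850393 to 96850465), had 145 and 144 CPM (144 ± 0.863). The 3 genes with the seed CAGUGCA summed to 2547 ± 41.9 CPM, of which Mir148a gave 69.0% and 69.6%, Mir148b 25.2% and 24.8%, and Mir152 5.76% and 5.58%.

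This division hardly moved between the livers. Mir148a had 2.74 counts per count of Mir148b in replicate 1 (2.58 to 2.91) and 2.80 in replicate 2 (2.66 to 2.95), a ratio of 1.02 with an adjusted p of 0.901 by Fisher's exact test. Against Mir152 it had 12.0 (10.7 to 13.4) and 12.5 (11.3 to 13.8), also with an adjusted p of 0.901. The intervals overlap in both cases, and a difference smaller than their width would not be seen.

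Mir455 and Mir802 have no counted relative of weight. Mir455 lies in an intron of Col27a1, a gene for a fibrillar collagen, on the plus strand of chromosome 4 from 63256851 to 63256932. The single other gene with a row that shares a seed with either of its arms, Mir5129, had 1 count in replicate 1 (0.425 CPM) and 0 in replicate 2. Mir802 lies on chromosome 16 from 93369720 to 93369816, in no annotated gene and 213640 bases from the nearest coding gene, Setd4, and shares its seeds with no other gene that has a row. Markers of mesenchymal cells, which also make collagen, were present in both libraries: 5 genes of the list had a row, and they summed to 17963.5 and 17088 CPM, with Mir143 highest. Their part in the level of Mir455 was not tested.

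Most genes next to the members in level could not be ranked apart from them. Among counted reads, which leave out those mapping to more than 1 place, Mir122 stood alone. The next gene, the endothelial Mir126a, was at 61517 and 57654 CPM. The 2-library ranges of Mir192 overlapped those of its neighbours Mir140 (4730 ± 132 CPM) and Mirlet7d (4552 ± 65.5 CPM). Mir194-2 lay below Mir300 (2401 ± 117 CPM) without overlap, though its higher value of 2314 CPM was close to the lower value of Mir300, 2318 CPM, and it overlapped Mir543 (2167 ± 228 CPM). Mir148a overlapped Mir185 (1791 ± 58.0 CPM) and Mir665 (1756 ± 294 CPM). Mir455 overlapped Mir467c (888 ± 24.9 CPM) and Mir186 (856 ± 58.3 CPM), and Mir194-1 overlapped Mir7219 and Mir7-2. With 2 libraries, likeness of level is all that can be compared, and for Mir194-2 and Mir194-1 without the reads they share.

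The remaining question is how closely the 2 livers agreed. The 6 members that reached 10 counts in both libraries were all higher in replicate 2, while Mir802, below that minimum, had 1.71-fold more CPM in replicate 1 with a replicate 2 over replicate 1 interval of 0.185 to 1.76. For Mir122 the ratio of replicate 2 to replicate 1 was 1.13 (exact 95% interval 1.128 to 1.14). Mir455 was 1.12-fold higher (1.06 to 1.19), Mir194-2 1.10-fold (1.06 to 1.14) and Mir192 1.04-fold (1.01 to 1.07). Mir148a was at 1.03-fold (0.991 to 1.07) and Mir194-1 at 1.25-fold (0.805 to 1.95), and both intervals include equality.

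By a two-sided exact binomial test over the 332 genes reaching 10 counts in both libraries, 4 of the 6 members tested passed, all higher in replicate 2. Of all genes tested 41.0% passed, and 23.2% passed with a higher level in replicate 2. The Benjamini-Hochberg adjusted p of this binomial test was 6.1e-07 for Mir194-2, 0.000295 for Mir455, 0.008 for Mir192, 0.233 for Mir148a and 0.525 for Mir194-1, while that of Mir122 was too small for the software to hold. The test covers counting error only. Mir192 did not pass with TMM scaling (adjusted p = 0.318) or DESeq2 size factors (adjusted p = 0.393) in the same exact test, which also turned the balance of all genes that passed from 77 higher in replicate 2 and 59 in replicate 1 to 59 and 69 by TMM.

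In size, the members' differences lay within the range of other genes. Their log2 ratios of replicate 2 over replicate 1 were 0.18 for Mir122, 0.17 for Mir455, 0.14 for Mir194-2, 0.06 for Mir192 and 0.05 for Mir148a. The median over the 6 members tested was 0.15, against 0.03 over all 332 genes. Of those genes 56.9% were higher in replicate 2. The median absolute log2 ratio of all genes tested was 0.16, and 45.5% of them had a larger one than Mir122. For Mir192 and Mir148a that share was 81.6% and 84.3%. Mir194-1 had a log2 ratio of 0.31, which 93 of the 332 genes exceeded. The coefficient of variation over the 2 libraries was 8.87% for Mir122, 8.17% for Mir455, 6.90% for Mir194-2, 2.72% for Mir192 and 2.22% for Mir148a, against a median of 5.47% over the 191 tested genes with a mean of at least 100 CPM.

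**Figure D3:**
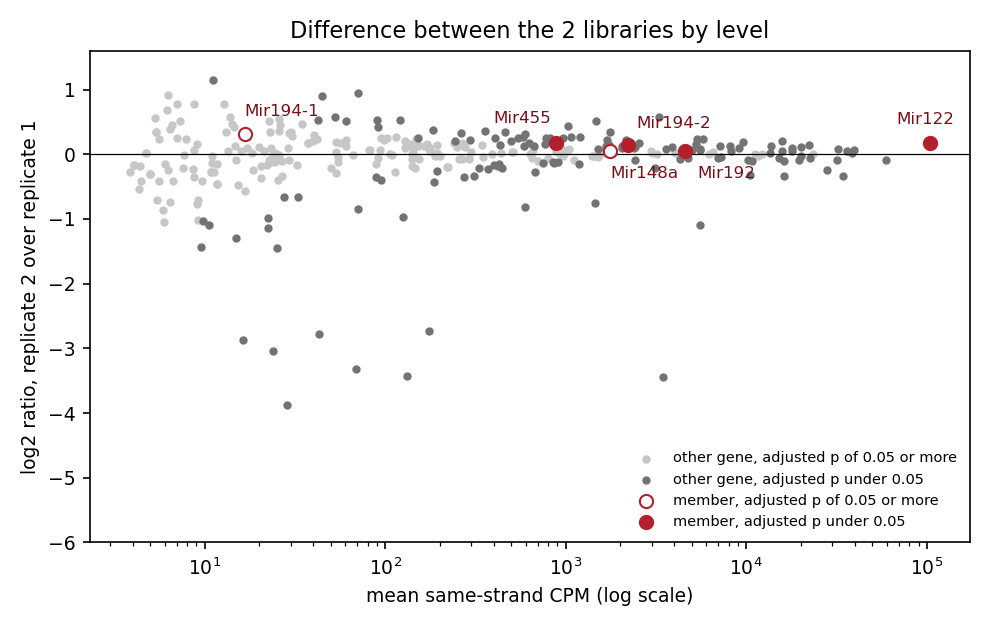
Log2 ratio of replicate 2 over replicate 1 against mean same-strand CPM (log scale) for the 332 genes tested, with members in red (filled where the adjusted p is under 0.05) and other genes in grey (dark where the adjusted p is under 0.05). The 6 members lie above 0, between 0.05 and 0.31, inside the band formed by most genes.

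Markers of other cell types moved between the livers as well, and CPM of all genes share 1 total. In counts without reads that map to more than 1 place, the highest erythroid markers were lower in replicate 2, opposite to Mir122. Another erythroid marker, Mir486, was higher by those counts, which are lower limits. Mir451a had 38020 and 30243 CPM in replicates 1 and 2, and its neighbour Mir144 had 11594 and 9272 CPM. Both passed the test. Mir486, matched through its RefSeq synonym after the values were seen, had 405 and 516 CPM and passed with a higher level in replicate 2 (adjusted p = 1.68e-08 by the exact binomial test). Mir451a and Mir144 summed to 49613 and 39515 CPM, and with Mir486 the sum was 50018 and 40030.5 CPM, so the direction of the sum is that of Mir451a and Mir144. With Mir451a and Mir144 left out of the totals, a setting chosen after the data were seen, the 6 members were still higher in replicate 2, with log2 ratios of 0.17 for Mir122 and 0.04 for Mir192. Of the 6 members 3 passed, with Mir192 at an adjusted p of 0.0702 by the exact binomial test. In that setting 134 of all 332 genes tested passed, 68 of them higher in replicate 2 and 66 in replicate 1.

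By counted reads the other lists shifted less or were low. The endothelial list (3 of 3 with a row, Mir126a highest) summed to 62537 and 58639 CPM, and the white cell list (4 of 5 with a row, Mir223 highest) to 10602 and 10015 CPM. In the white cell list Mir223 passed with a lower level in replicate 2 and Mir155 with a higher one (77.7 and 104 CPM). That white cell sum leaves out the opposite strand of Mir142b, which had 126731 and 180061 counts there against 1 and 1 on its own strand. Counted regardless of strand, the list came to 58252 and 60575.5 CPM, so its direction turned to higher in replicate 2. The epithelial and biliary list (6 of 6 with a row, Mir429 highest) was, like Mir122, higher in replicate 2, with 3461 and 3851 CPM. Of its 6 genes 3 passed, all higher in replicate 2, against 23.2% of all genes tested, and with 6 genes nothing is read from that count. The pancreas and gut list (4 of 4 with a row) had 1177 and 1194 CPM, with none passing. The neural list (3 of 4 with a row) had 392 and 154 CPM, and Mir137 was the member that passed. The muscle list had 31.0 and 14.0 CPM, all from Mir206, while Mir1a-1 and Mir133a-1 were at 0 in both libraries. All these list sums lack the reads fitting several loci, so they are lower limits. A count of 0 therefore does not show absence, and the highest gene named in a list is the highest by counted reads only. The part of the list shifts in the members' difference was not tested.

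**Figure D4:**
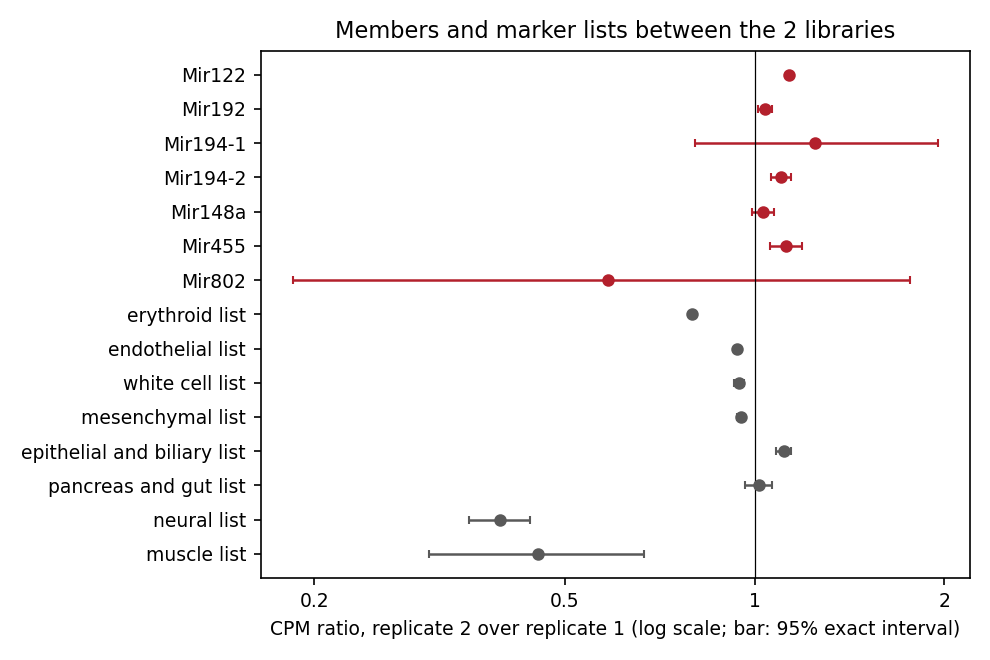
CPM ratio of replicate 2 over replicate 1 (log scale) for each member (red) and for the summed same-strand counts of each marker list (grey; the erythroid list is Mir451a and Mir144), with 95% exact intervals that cover counting error only. Mir122 lies at 1.13, the erythroid list at 0.796 and the epithelial and biliary list at 1.11, and the interval of Mir802 runs from 0.185 to 1.76.

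A list of other microRNAs known for acting on liver lipid and glucose metabolism did not share a direction. Of its 12 genes 11 had a row, and all 11 were tested. The sum was 6318 and 6454 CPM, close to 0.639% of the counts. By counted reads it was below the 9425 ± 389 CPM of the 6 members other than Mir122. Both sums lack the reads fitting several loci, so they are lower limits and their order with those reads is not known. The list's highest genes by counted reads were Mir107 (1795 ± 76.6 CPM) and Mir185 (1791 ± 58.0 CPM), both at the level of Mir148a, and Mir27b (1116 ± 46.9 CPM). Mir107 was higher in replicate 2 (adjusted p = 0.00933 by the exact binomial test). Mir33, which lies in the cholesterol regulator gene Srebf2 and is named after its value was seen, was higher in replicate 1 with 210 against 176 CPM (adjusted p = 0.0125 by the same binomial test). The other 9 did not pass, while 41.0% of all genes tested did. Of the 11 genes 7 were higher in replicate 2, against 56.9% of all genes tested. With 11 genes nothing is read from these counts. The median log2 ratio of the list was 0.07.

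The members' reads came from the annotated strand. Opposite-strand counts at the 7 genes were between 0 and 2 in each library, 1 and 1 for Mir122. Over all genes they were 9.60% and 10.2% of the counts, but much of this came from Mir142b. That gene alone held 126731 of 250067 opposite-strand counts in replicate 1 and 180061 of 357710 in replicate 2. Few opposite-strand counts are not particular to the members: Mir107, Mir185 and Mir27b, for example, had 0 in both libraries. Mir122 lies from 65248861 to 65248926 on the plus strand of chromosome 18, in an exon of the noncoding gene AC157910.3, and 970337 bases from the nearest other annotated microRNA gene. The sequencing kept small RNAs alone, so the levels of AC157910.3, 2010103J01Rik, Col27a1 and the other host transcripts were not measured.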

How the data were processed

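Per the text notes deposited with the tables, the authors made each table from its own alignment to mm10 with annotation M4. The authors deposited unnormalized counts for each microRNA gene, given regardless of strand, on the gene's strand and on the opposite strand. For aligner, counter and trimming, nothing is given in the sources used here. The 4 rows that name no gene (unmapped 18.6% and 17.7% of reads, mapped to more than 1 place 34.0% and 33.1%, in no gene 10.6% and 10.4%, ambiguous 0) were left out of totals.

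Of 1973 IDs, 1894 matched GENCODE M21 (79 did not). CPM used same-strand totals. Genes reaching 10 counts in both libraries were compared between them by an exact binomial test (the smaller tail doubled; scipy 1.17.1), Benjamini-Hochberg adjusted, with 0.05 as threshold, and pairs of genes by Fisher's exact test. Log2 ratios add 0.5 to each count, so they understate differences of low genes. Shares have Clopper-Pearson and counts Poisson intervals at 95%. Alternatives were TMM (edgeR 4.0.16), DESeq2 1.42.0 size factors, other minimums, pseudocounts and totals, and both strands. The steps were checked on simulated counts. The named genes are the members, their seed relatives and cluster partners, the genes next to them in level and the 3 highest of the metabolism list. Marker genes and Mir33 are named outside this rule, after their values were seen. Members and lists were chosen with earlier results of these data known.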

Additional observations from a re-analysis of the deposited data

How the results depend on the processing

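The number of members that differed between the libraries was 4 under the minimum counts, both-strand counts and totals without Mir122, 3 by TMM, by DESeq2 size factors or without Mir451a and Mir144 in the totals, and 5 by all reads, where Mir148a also passed (log2 ratio 0.12, adjusted p = 0.000118 by the exact binomial test). Mir192 had a log2 ratio of 0.02 by TMM and by DESeq2 size factors. The direction of the 7 log2 ratios stayed the same in the scaling, strand and pseudocount alternatives. All genes that passed numbered 136, with 127 to 158 under the alternatives, and 123 of the 158 by all reads were higher in replicate 2. The members' sum was 10.2% of counts regardless of strand and 4.29% of all reads, each with a larger total, and 1.05% with Mir122 left out of sum and totals. The log2 ratio of the white cell marker sum turned from -0.082 to 0.056 with counts regardless of strand. That of the erythroid sum was -0.33, or -0.32 with Mir486. Counting the white cell list regardless of strand and adding Mir486 were choices made after the data were seen. With either replicate left out, the members' sum was 10.6% to 12.0%. The number of pairs that passed was 0 with both kinds of count. No paired analysis was possible because there is 1 group. With 1 library left out, the libraries cannot be compared. Depth limits Mir802 and Mir215, with 10 or fewer counts in each library.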
